A study of Mus musculus with 12 samples.

Results

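The heat shock chaperones examined here were Hsph1, Hspa4, Hspa8, Hspa1b, Dnaja1, Dnajb1, Hsp90aa1, Hsp90ab1, Hspd1 and Hspb1. This set of 10 genes was chosen by name, with earlier results of these data known. Of these 10, 8 had a probe set listed for them alone in the platform annotation, out of 19938 genes on the array, and all 8 passed the filter on dim genes. Where a gene had several probe sets, the one with the highest mean over the arrays stood for it. Hspa1b was measured together with Hspa1a by a shared probe set, and Hsp90ab1 was not analysed here. RNA came from mouse embryonic fibroblasts, which are connective tissue cells of the embryo, in 4 groups of 3 arrays, with the labelled circadian times CT18 and CT30 written as 18 h and 30 h: MLL1-KO at 30 h, MLL1-KO at 18 h, wild type (WT) at 30 h and WT at 18 h. MLL1, encoded by Kmt2a, is a histone methyltransferase. Cells of all 4 groups grew with 5% FBS and 5% NCS and all received horse serum at 50% for 2 h, a serum shock of the kind used to set cultured clocks in step. The sources used here do not state the age of the embryos, the number of lines per genotype or how the knockout was made. Nor do they name separate cultures behind the numbered arrays of a group, so the spread that enters each p-value may be technical.

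Molecular chaperones keep proteins from aggregating and help them fold. HSP70 proteins bind unfolded stretches in a cycle driven by ATP: J-domain proteins deliver the client and speed up hydrolysis, and HSP110 proteins exchange the nucleotide so that the client is released. HSP90 matures kinases and steroid receptors, the HSP60 chaperonin folds proteins inside mitochondria, and small heat shock proteins hold unfolded proteins without ATP. Many of these genes are targets of heat shock factor 1, which binds heat shock elements, inverted repeats of the motif GAA in promoters.

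The upstream sequences of the genes that the results below turn on are printed here to show where heat shock element letters lie. They are RefSeq sequences of build GRCm38.p6, read 5′ to 3′ on the strand of the gene. Those of Hsph1, Dnaja1, Hspb1 and Hspa4 end at the base before an annotated start, and the shorter Hspd1 stretch runs between 147 and 118 bases before one. Hsph1 (chr5:149636337-149636586, minus strand), Dnaja1 (chr4:40722218-40722467, plus strand) and Hspd1 (chr1:55088050-55088079, minus strand, 30 bases) had the largest rises with time in KO cells. Hspb1 (chr5:135887669-135887918, plus strand) had the largest genotype difference among the 8 genes. Hspa4 (chr11:53300480-53300729, minus strand) rose with time in KO cells and is shown as a gene with no match. Capitals mark each match to GAANNTTC or TTCNNGAA, the dyads of the element, which overlap where units follow each other.
Hsph1: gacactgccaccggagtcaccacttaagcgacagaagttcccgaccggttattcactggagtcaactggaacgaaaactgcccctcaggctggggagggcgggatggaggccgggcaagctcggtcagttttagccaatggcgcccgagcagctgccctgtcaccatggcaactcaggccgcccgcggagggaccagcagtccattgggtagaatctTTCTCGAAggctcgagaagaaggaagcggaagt
Dnaja1: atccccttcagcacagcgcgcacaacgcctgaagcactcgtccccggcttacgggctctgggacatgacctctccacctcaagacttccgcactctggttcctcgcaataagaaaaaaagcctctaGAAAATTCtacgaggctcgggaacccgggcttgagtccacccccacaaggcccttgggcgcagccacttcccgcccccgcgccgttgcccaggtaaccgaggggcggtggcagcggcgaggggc
Hspd1: gccTTCCGGAAGGTTCTAGAAcggaccgtg
Hspb1: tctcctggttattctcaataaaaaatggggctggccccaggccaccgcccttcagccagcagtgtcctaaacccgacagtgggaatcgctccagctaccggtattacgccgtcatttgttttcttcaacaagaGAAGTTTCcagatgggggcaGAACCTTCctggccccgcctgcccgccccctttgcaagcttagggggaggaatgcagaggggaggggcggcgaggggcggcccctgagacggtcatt
Hspa4: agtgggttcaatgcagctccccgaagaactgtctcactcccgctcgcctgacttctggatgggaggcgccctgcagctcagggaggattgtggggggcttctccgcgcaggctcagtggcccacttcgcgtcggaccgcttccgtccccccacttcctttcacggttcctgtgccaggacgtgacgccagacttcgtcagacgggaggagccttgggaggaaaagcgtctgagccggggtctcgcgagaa
Both dyads read the same on either strand. Of the 10 genes, 7 had RefSeq upstream sequence, and 5 of these 7 held a dyad within 250 bases of at least 1 annotated start: Hsph1, Hspa1b, Dnaja1, Hspb1 and Hspd1. Hspa4 and Dnajb1 held none. Over all 27025 genes with such sequence, 14.5% held a dyad. The match of Hsph1, TTCTCGAA, lay between 33 and 26 bases before the start in the window printed. Hspd1 was the 1 of the 7 with at least 3 units in a row, a form found in 0.514% of all genes. Such a run is a dyad followed after any 2 bases by another unit, GAA after GAANNTTC or TTC after TTCNNGAA. In the Hspd1 stretch printed, a match of each kind overlaps the other, so its run is longer than 3 units. These matches describe the letters only. The upstream 250 bases of Hspa1a and Hspa1b were identical at 247 positions and different at 3.

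Array medians lay between 273.3 and 311.8 intensity units, and the median SD between arrays of a group was 0.0814 to 0.106 on the log2 scale. With 3 arrays a group, precision is limited by their number. The arrays formed 4 separate groups on the first 2 principal components, and KO 18 h replicate 1 stood apart from its group on the second (-9.34, against -25.16 and -24.94 for the other KO 18 h arrays). The probe set of Kmt2a, the targeted gene, averaged 1429 ± 134 in KO cells and 2118 ± 44.2 in WT cells at 30 h (SD, n = 3 each; log2 -0.57, adjusted p = 0.000111). At 18 h it averaged 2085 ± 112 in KO cells and 2396 ± 379 in WT cells (SD, n = 3 each; log2 -0.19, adjusted p = 0.108), and the arrays overlapped. The disrupted part of the gene is not stated, so this probe set does not check the labels. Of 12 fibroblast markers 10 passed the filter, and Lum and Fap did not. The summed intensity of the 12 was 53853 to 57844 in KO cells at 30 h, 59059 to 59218 in KO cells at 18 h, 53490 to 56276 in WT cells at 30 h and 53793 to 57615 in WT cells at 18 h. These sums are carried by Vim, Fn1, Col1a1 and Col1a2, and other fibroblast markers differed widely between the genotypes in either direction. At 30 h Pdgfra averaged 419 ± 22.2 in KO cells and 3297 ± 115 in WT cells, Pdgfrb 863 ± 51.2 in KO cells and 3148 ± 172 in WT cells, and Col3a1 602 ± 91.2 in KO cells and 2804 ± 185 in WT cells (SD, n = 3 each). Dcn averaged 5662 ± 337 in KO cells and 268 ± 45.4 in WT cells, and Fbln1 1786 ± 199.6 in KO cells and 627 ± 48.3 in WT cells (SD, n = 3 each). The part of these marker differences in the genotype results was not tested. Fewer cells of a type and less RNA per cell cannot be told apart in such bulk samples.

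The HSP110 gene Hsph1, whose product exchanges the nucleotide of HSP70, changed most with time among the 8 genes. It had intensities of 3135, 2823 and 3040.0 in KO cells at 30 h and 1319, 1256 and 1183 in KO cells at 18 h, and of 2153, 1984 and 2094 in WT cells at 30 h and 1749, 1628 and 1510.5 in WT cells at 18 h. The 30 h arrays of KO cells were the highest of all 12 and the 18 h arrays of KO cells the lowest, with no overlap between any of the 4 groups. On the log2(intensity + 16) scale, the scale of every difference given here, Hsph1 rose between 18 h and 30 h by 1.25 ± 0.08 (SE) in KO cells, a 2.38-fold change (limma, adjusted p = 3.78e-08). In WT cells it rose by 0.35 ± 0.08 (adjusted p = 0.0175), a call that ended when WT 18 h replicate 2, WT 30 h replicate 1 or WT 30 h replicate 3 was left out (adjusted p = 0.0631 to 0.0963). The difference of the time effects, KO minus WT, was 0.90 (95% interval 0.67 to 1.13, adjusted p = 7.7e-05). Set against WT, Hsph1 was lower in KO cells at 18 h (-0.37, adjusted p = 0.0004) and higher in KO cells at 30 h (0.53, adjusted p = 1.69e-05). All 5 comparisons draw on the same 12 arrays, so the time and genotype differences of a gene share samples.

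Hspa4, a second HSP110 gene, was higher in KO cells at both times. Its intensities were 5425, 5379 and 5723 in KO cells at 30 h and 4382, 4467 and 4633 in KO cells at 18 h, and 3854, 3654 and 3921 in WT cells at 30 h and 4084, 3682 and 3525 in WT cells at 18 h. Every KO array lay above every WT array, and the WT times overlapped. KO minus WT was 0.53 ± 0.06 at 30 h (adjusted p = 1.84e-06) and 0.26 ± 0.06 at 18 h (adjusted p = 0.0019). Hspa4 rose with time in KO cells by 0.29 (adjusted p = 0.00146), and its WT value was 0.02 (95% interval -0.11 to 0.15, adjusted p = 0.913). The time effects differed by 0.27 (adjusted p = 0.0391), but this call held in only 2 of the 12 fits that left out 1 array, those without KO 18 h replicate 1 or WT 18 h replicate 3, and the other 10 gave 0.21 to 0.30 with adjusted p = 0.0502 to 0.1. The replicate number as a block also ended it (adjusted p = 0.0514). So did no filter, no intensity trend, quantile scaling, cyclic loess and equal array medians (0.18 to 0.27, adjusted p = 0.0526 to 0.243).

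**Figure D1:**
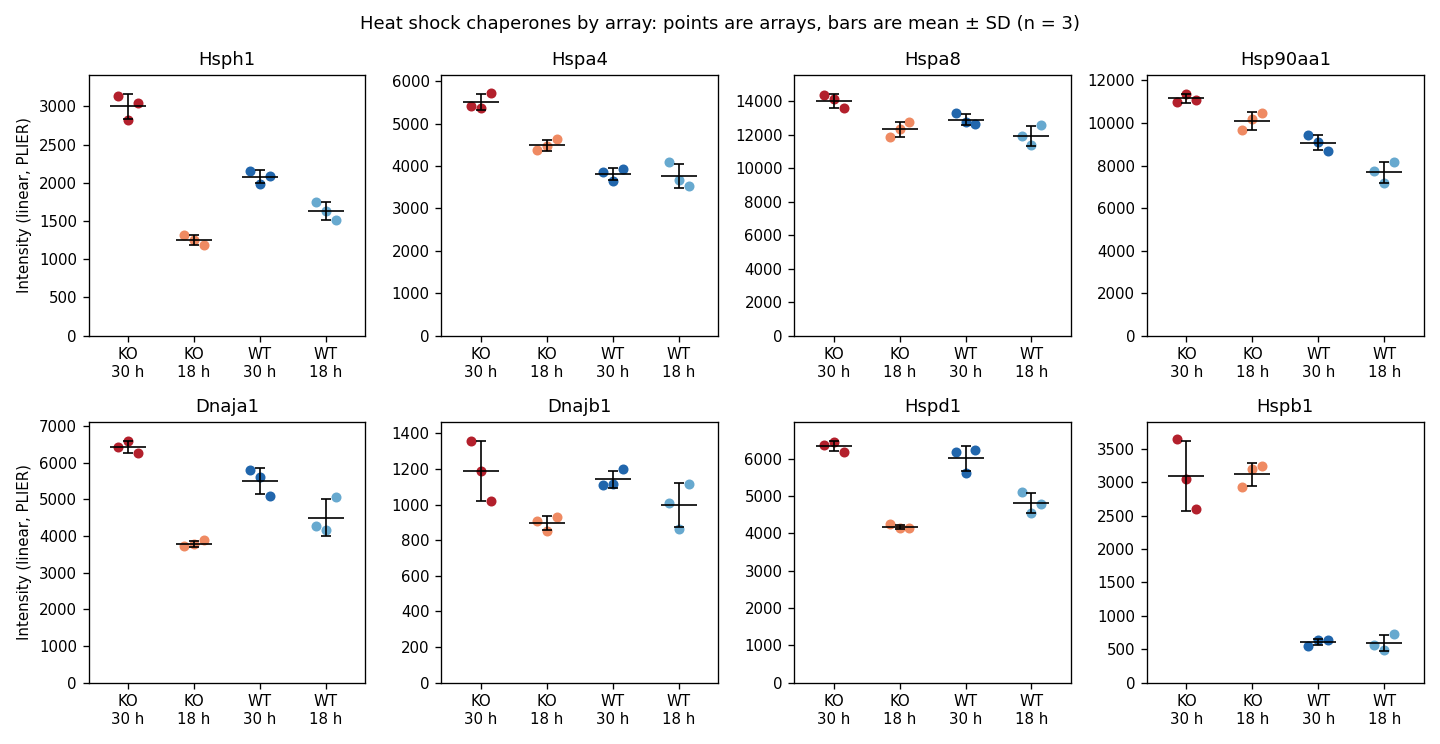
Intensity (PLIER, linear axis from 0) of the 8 heat shock chaperones on the 12 arrays; each point is an array, and bars give the mean ± SD of 3 arrays for KO at 30 h, KO at 18 h, WT at 30 h and WT at 18 h. For Hsph1 the KO arrays at 30 h lie at 2823 to 3135 and those at 18 h at 1183 to 1319, and for Hspb1 the 6 KO arrays lie at 2598 to 3643 and the 6 WT arrays at 495 to 728.

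Hspa8 encodes HSC70, the constitutive cytosolic HSP70, and its probe sets disagreed on genotype. The probe set of highest mean had intensities of 14374, 14115 and 13579.6 in KO cells at 30 h and 11886, 12321 and 12761 in KO cells at 18 h, and of 13293, 12765 and 12669 in WT cells at 30 h and 11907, 11374 and 12564 in WT cells at 18 h. The 30 h arrays lay above the 18 h arrays in both genotypes. The rise with time was 0.19 in KO cells (adjusted p = 0.00463), and the WT value was 0.11 (adjusted p = 0.205), with a difference of the time effects of 0.07 (95% interval -0.07 to 0.21). The rise in KO cells lost its call with array medians set equal (0.17, adjusted p = 0.0581) and with the own-locus probe set on chromosome 9 (0.30, adjusted p = 0.119 among genes). By genotype the difference was 0.12 at 30 h (adjusted p = 0.0422) and 0.05 at 18 h (adjusted p = 0.439). The call at 30 h ended without WT 30 h replicate 2 or 3, KO 18 h replicate 2, or KO 30 h replicate 1 or 2 (0.10 to 0.12, adjusted p = 0.0584 to 0.124). It also ended with the replicate number as a block (adjusted p = 0.0606), with no filter, with no intensity trend and under each other scaling (0.04 to 0.12, adjusted p = 0.0512 to 0.35).

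A second Hspa8 probe set, whose neighbouring probe set IDs are listed for genes near Hspa8 on chromosome 9, gave the opposite genotype difference. It had intensities of 8791, 8601 and 6420.2 in KO cells at 30 h and 4570.0, 7109.6 and 7916 in KO cells at 18 h, and of 13806, 13417 and 13151 in WT cells at 30 h and 13054, 12489.9 and 13252 in WT cells at 18 h. All 6 KO arrays lay below all 6 WT arrays, while the KO times overlapped. Tested among 23141 single probe sets, of which 51.2% were called at 18 h and 41.9% at 30 h, its KO minus WT difference was -0.77 at 30 h (adjusted p = 0.00192) and -1.02 at 18 h (adjusted p = 0.000171). The probe set of highest mean has neighbouring IDs listed for genes of chromosome 5. The remaining one listed for Hspa8 alone has them for genes of chromosome 10. That one gave 0.14 at 30 h (adjusted p = 0.0437) and 0.05 at 18 h (adjusted p = 0.427). The direction of the genotype difference of Hspa8 therefore depends on the probe set taken. The cause was not tested.

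The stress-inducible HSP70 genes Hspa1a and Hspa1b have near-identical sequences, and their values cannot be told apart on the probe set they share. This probe set had 1416, 1296 and 1354 in KO cells at 30 h and 1298, 1417 and 1396 in KO cells at 18 h, and 1643, 1557 and 1658 in WT cells at 30 h and 1839, 1658 and 1629 in WT cells at 18 h. KO arrays lay below WT arrays at both times. The difference was -0.25 at 30 h (adjusted p = 0.012) and -0.31 at 18 h (adjusted p = 0.00253). These and the other p-values of this paragraph are adjusted over single probe sets. Time values were -0.02 in KO cells (adjusted p = 0.913) and -0.08 in WT cells (adjusted p = 0.666). The probe set listed for Hspa1a alone had 504, 438 and 532 in KO cells at 30 h and 444, 397 and 464 in KO cells at 18 h, and 388, 357 and 347 in WT cells at 30 h and 366, 276 and 371 in WT cells at 18 h. Here KO was higher, by 0.41 at 30 h (adjusted p = 0.0146) and 0.36 at 18 h (adjusted p = 0.0254), so the 2 probe sets gave opposite directions.

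The J-domain gene Dnaja1, a cofactor of HSP70, had the next largest rise with time in KO cells. Its intensities were 6437, 6587 and 6269 in KO cells at 30 h and 3711, 3774 and 3879 in KO cells at 18 h, and 5797, 5604 and 5096 in WT cells at 30 h and 4266, 4150.0 and 5066 in WT cells at 18 h. KO arrays lay above WT arrays at 30 h and below them at 18 h, and the lowest WT array at 30 h lay just above the highest at 18 h. The rise was 0.76 ± 0.07 in KO cells (1.70-fold, adjusted p = 1.56e-06) and 0.29 ± 0.07 in WT cells (adjusted p = 0.0321), and the time effects differed by 0.47 (95% interval 0.25 to 0.68, adjusted p = 0.00468). The KO minus WT difference was 0.23 at 30 h (adjusted p = 0.0139) and -0.24 at 18 h (adjusted p = 0.00842). Leaving out 1 array ended several of these calls. That at 18 h ended without WT 18 h replicate 3 (-0.15, adjusted p = 0.0511). That at 30 h ended without WT 30 h replicate 3 or KO 30 h replicate 2 (0.17 to 0.21, adjusted p = 0.0521 to 0.0827). That with time in WT cells ended without WT 18 h replicate 1 or 2, WT 30 h replicate 1 or 2, or KO 30 h replicate 2 (0.24 to 0.29, adjusted p = 0.051 to 0.158). Setting array medians equal ended both genotype calls (0.20 at 30 h, adjusted p = 0.0585; -0.18 at 18 h, adjusted p = 0.0835). Cyclic loess (adjusted p = 0.0543), no intensity trend (adjusted p = 0.0728) and the replicate block (adjusted p = 0.0509) ended the WT call. The mean of probe sets ended the calls at 30 h (0.10, adjusted p = 0.269) and with time in WT cells (0.19, adjusted p = 0.166).

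The Dnaja1 probe set with neighbouring IDs listed for its own locus on chromosome 4 had 995, 982 and 919 in KO cells at 30 h and 625, 478 and 459 in KO cells at 18 h, and 1052, 916 and 977 in WT cells at 30 h and 953, 897 and 909 in WT cells at 18 h. The 3 KO arrays at 18 h were the lowest of the 12, and the other 3 groups overlapped. Tested among single probe sets, its rise with time was 0.88 in KO cells (adjusted p = 1e-04). Its WT value was 0.09 (adjusted p = 0.736), and the time effects differed by 0.79 (adjusted p = 0.00684). The KO minus WT difference was -0.02 at 30 h (adjusted p = 0.893) and -0.81 at 18 h (adjusted p = 3.11e-05). With this probe set the calls with time in WT cells and by genotype at 30 h were thus not made, while those with time in KO cells, by genotype at 18 h and on the difference of the time effects were.

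**Figure D2:**
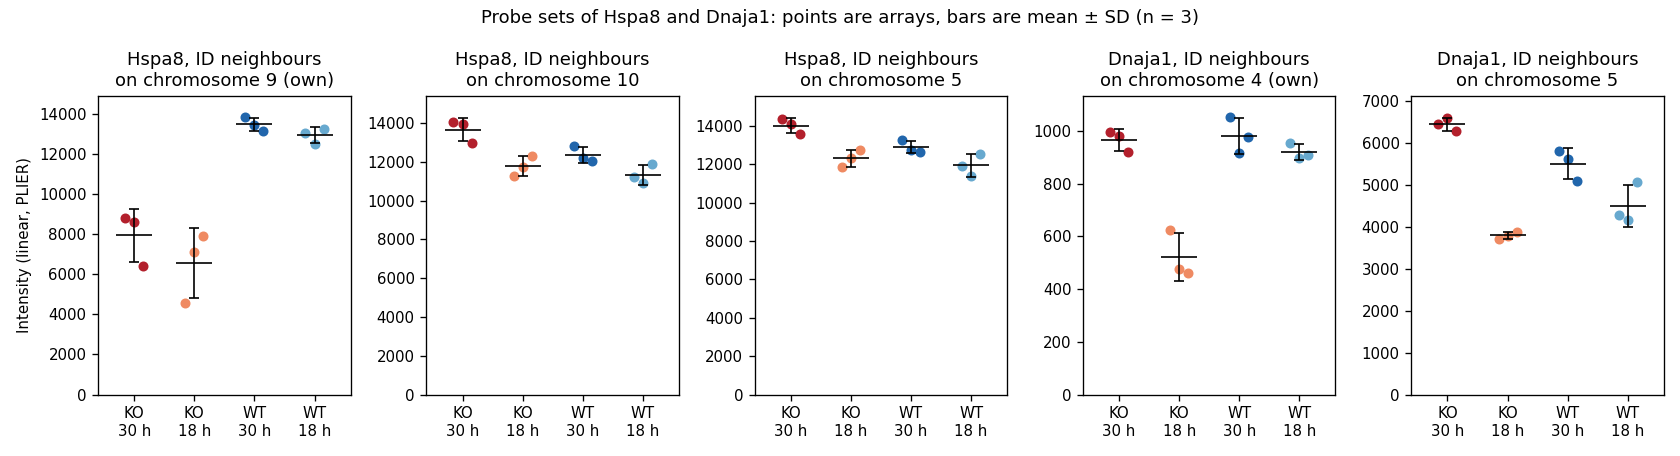
Intensity (PLIER, linear axis from 0) of the 3 probe sets listed for Hspa8 alone and the 2 listed for Dnaja1 alone, by the chromosome of the genes listed for the neighbouring probe set IDs. Points are arrays and bars mean ± SD of 3 arrays. A further 2 probe sets for Hspa8 and 1 for Dnaja1 are listed with other genes and were not analysed. For Hspa8 the chromosome 9 probe set has all KO arrays at 8791 or less and all WT arrays at 12489.9 or more, while on the other 2 the 6 KO and 6 WT arrays overlap.

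Dnajb1, a J-domain gene that heat shock factor 1 is known to induce, had 1357, 1189.5 and 1020.5 in KO cells at 30 h and 909.8, 854 and 931 in KO cells at 18 h, and 1111, 1118 and 1198 in WT cells at 30 h and 1009.9, 865 and 1114 in WT cells at 18 h. The KO times did not overlap, although the KO 30 h arrays spread widely. It rose with time in KO cells by 0.39 (adjusted p = 0.00758), and its WT value was 0.20 (adjusted p = 0.334). By genotype its values were 0.05 at 30 h (95% interval -0.18 to 0.27) and -0.14 at 18 h (95% interval -0.36 to 0.08), with adjusted p = 0.729 and 0.276.

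The HSP90 gene Hsp90aa1, the inducible cytosolic form, was higher in KO cells at both times. It had 11005, 11382 and 11094 in KO cells at 30 h and 9663, 10171 and 10462 in KO cells at 18 h, and 9448, 9091 and 8706 in WT cells at 30 h and 7732, 7162 and 8145 in WT cells at 18 h. Within each time all KO arrays lay above all WT arrays. The KO minus WT difference was 0.30 ± 0.05 at 30 h (adjusted p = 0.000174) and 0.40 ± 0.05 at 18 h (adjusted p = 6.78e-06), and the other 2 probe sets gave 0.30 and 0.35 at 30 h and 0.40 and 0.43 at 18 h. It rose with time by 0.14 in KO cells (adjusted p = 0.0425) and by 0.24 in WT cells (adjusted p = 0.0192), and the time effects had a difference of -0.10 (95% interval -0.26 to 0.06, adjusted p = 0.419). The KO call ended without WT 30 h replicate 2, KO 18 h replicate 1 or 2, or any 1 of the KO 30 h arrays (0.11 to 0.15, adjusted p = 0.0551 to 0.135). It also ended with the replicate number as a block (adjusted p = 0.0615), with the own-locus probe set, with no filter, with no intensity trend and under each other scaling (0.09 to 0.14, adjusted p = 0.0538 to 0.169). The WT call ended without replicate 1 or 2 of either WT group (0.19 to 0.25, adjusted p = 0.0549 to 0.11), and with no intensity trend (adjusted p = 0.085). Tested among single probe sets, neither this probe set nor the other 2 was called with time. Their values were 0.14 to 0.20 in KO cells (adjusted p = 0.0635 to 0.0986) and 0.23 to 0.29 in WT cells (adjusted p = 0.0598 to 0.0886).

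Hspd1 encodes HSP60, the mitochondrial chaperonin. Its intensities were 6364, 6454 and 6184 in KO cells at 30 h and 4239, 4139 and 4144 in KO cells at 18 h, and 6182, 5603 and 6220.2 in WT cells at 30 h and 5102, 4551 and 4789 in WT cells at 18 h. The times did not overlap in either genotype, and the genotypes overlapped at 30 h only. It rose with time by 0.60 ± 0.06 in KO cells (1.52-fold, adjusted p = 1.95e-06) and by 0.32 ± 0.06 in WT cells (adjusted p = 0.00698). The WT call ended without WT 30 h replicate 1 or 3 (0.29 to 0.30, adjusted p = 0.0508 to 0.053). The time effects differed by 0.28 (adjusted p = 0.024), which ended without WT 18 h replicate 1, WT 30 h replicate 2, KO 18 h replicate 2 or 3, or KO 30 h replicate 2 (0.23 to 0.28, adjusted p = 0.0505 to 0.0741). Hspd1 was lower in KO cells at 18 h (-0.20, adjusted p = 0.0063; with array medians set equal -0.14, adjusted p = 0.129), and its value at 30 h was 0.08 (adjusted p = 0.278). Tested among single probe sets, its own-locus probe set on chromosome 1 gave 0.76 with time in KO cells (adjusted p = 3.62e-05). There the WT value was 0.31 (adjusted p = 0.0837) and the difference of the time effects 0.45 (adjusted p = 0.0214). Tested among genes, this probe set kept the WT call.

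Hspb1, the small heat shock protein known as HSP25 in mouse, differed between the genotypes more than any other of the 8 genes and did not change detectably with time. It had 3643, 3043 and 2598 in KO cells at 30 h and 2923, 3204 and 3239 in KO cells at 18 h, and 551, 632 and 631 in WT cells at 30 h and 569, 495 and 728 in WT cells at 18 h. The lowest KO array, at 2598, lay far above the highest WT array, at 728. The KO minus WT difference was 2.31 ± 0.13 at 30 h (4.98-fold, adjusted p = 1.25e-10) and 2.37 ± 0.13 at 18 h (5.18-fold, adjusted p = 7.83e-11). The time values were -0.02 in KO cells (95% interval -0.30 to 0.25) and 0.03 in WT cells (95% interval -0.24 to 0.31). Its own-locus probe set on chromosome 5 gave 2.37 at 30 h and 2.43 at 18 h.

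**Figure D3:**
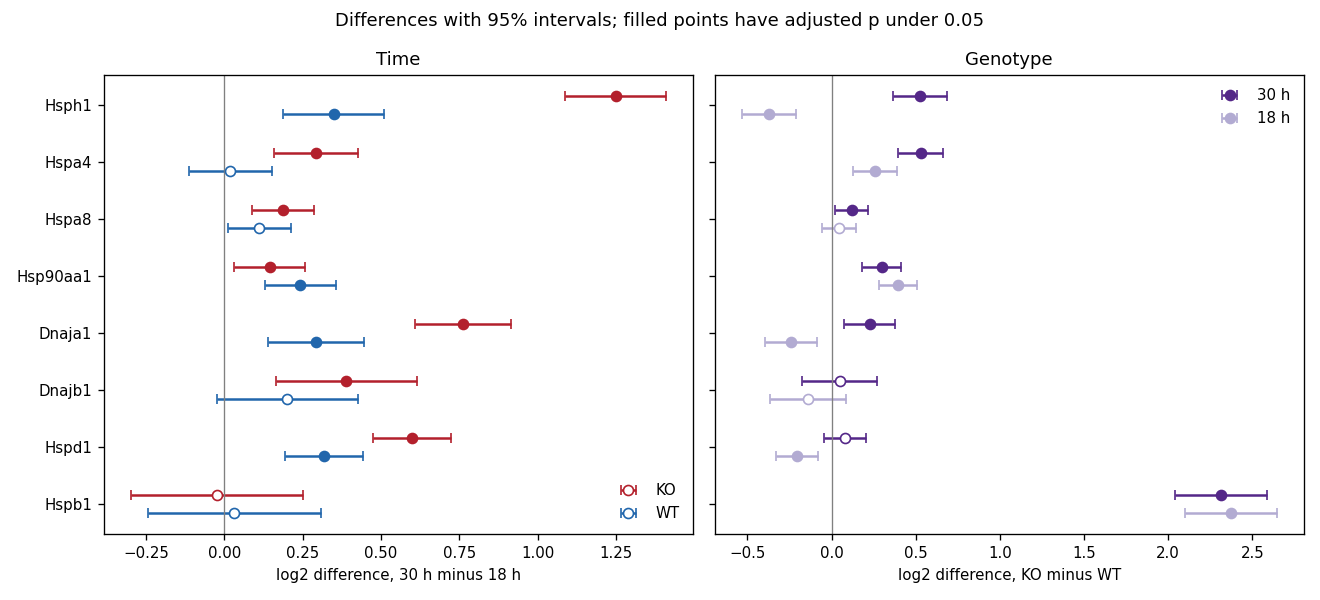
Log2 differences with 95% intervals for the 8 genes: left, 30 h minus 18 h in KO and in WT cells; right, KO minus WT at 30 h and at 18 h. Filled points have an adjusted p under 0.05; with time, Hsph1 in KO cells (1.25) lies farthest from 0, and by genotype Hspb1 (2.31 and 2.37).

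Across the set, 7 of the 8 genes rose with time in KO cells and none fell, with a median of 0.34, where 20.9% of all 13956 genes tested rose, 18.4% fell (39.3% called) and the median was 0.02. The genes were chosen with earlier results of these data known. Counts set beside such shares, here and below, are therefore a description and not a test. In WT cells 4 of the 8 rose (Hsph1, Hsp90aa1, Dnaja1 and Hspd1) and none fell, with a median of 0.22, where 2.41% of all genes rose and 1.55% fell (3.96% called) and the median was -0.01. No member was called with time in WT cells when WT 30 h replicate 1 was left out. The count over all genes in WT cells also turned on single arrays, with 337 rises and 216 falls. The rises ranged between 74, without WT 30 h replicate 3, and 605, without KO 18 h replicate 1. The falls ranged between 55, without WT 30 h replicate 1, and 427, without KO 18 h replicate 1 or WT 18 h replicate 3. The time effects differed for 4 of the 8 (Hsph1, Hspa4, Dnaja1 and Hspd1), all with the larger value in KO cells and with a median over the 8 of 0.23, where 10.2% of all genes were called in that direction and 10.1% in the other (20.3% called) and the median was 0.04. The 1427 positive differences over all genes became 895 without KO 18 h replicate 2 and 2259 without KO 18 h replicate 1. The split of all calls with time in WT cells was 60.9% higher, and 81.0% with array medians set equal; that of the differences was 50.3% higher, 30.1% with array medians set equal and 37.4% with cyclic loess. With quantile scaling, with equal medians and with no intensity trend, 2 of the 8 differences were called, Hsph1 and Dnaja1. Without KO 18 h replicate 1, the array that stood apart, 6 of 8 rose in KO cells and 4 differences were called. The 7 rises in KO cells became 5 with array medians set equal and 5 with the own-locus probe sets. The summed intensity of 8 blood and macrophage markers, of which 5 passed the filter, was 2133.3 to 2262.4 in KO cells at 30 h, 2651.8 to 4291.2 in KO cells at 18 h, 2139.6 to 2262.0 in WT cells at 30 h and 2412.9 to 2471.9 in WT cells at 18 h. Among them Cd68, a lysosomal protein of macrophages, had 897, 832 and 685 in KO cells at 30 h and 1315, 2635 and 2964 in KO cells at 18 h, Ptprc was below the filter, and none was at 0. The lower sum at 30 h rests on Cd68: in KO cells Cd14 averaged 282 ± 52.3 at 30 h against 185 ± 6.95 at 18 h (SD, n = 3), the reverse order. Itgam averaged 284 ± 27.9 at 30 h against 284 ± 7.65 at 18 h (SD, n = 3). The part of cells with such markers in the time differences was not tested.

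By genotype, 6 of the 8 genes were higher in KO cells at 30 h and none lower, with a median of 0.26, where 24.3% of all genes were higher and 28.6% lower (52.9% called) and the median was 0.02. At 18 h 3 were higher (Hspa4, Hsp90aa1 and Hspb1) and 3 lower (Hsph1, Dnaja1 and Hspd1), with a median of -0.05. Here 26.3% of all genes were higher and 33.8% lower (60.1% called) and the median was -0.03. With array medians set equal, 1 of the 8 was lower at 18 h, Hsph1. With the own-locus probe sets, 4 were higher and 1 lower at 30 h, and 3 were higher and 4 lower at 18 h. The summed intensity of 7 neural markers, of which 6 passed the filter, was 9119.3 to 10817 in KO cells at 30 h, 10995 to 12337 in KO cells at 18 h, 1382.9 to 1587.5 in WT cells at 30 h and 1468.2 to 1542.4 in WT cells at 18 h. Map2 averaged 1366 ± 206 in KO cells and 20.6 ± 1.34 in WT cells at 30 h, and Nes 3404 ± 249 in KO cells and 44.1 ± 10.8 in WT cells (SD, n = 3 each). Every WT value of Map2 and Nes lay below the filter intensity of 174.8, so both passed the filter through KO cells alone. Sox2, Rbfox3 and Gfap overlapped between the genotypes at both times. Endothelial markers, 1 of 6 above the filter, summed to 825.73 to 930.0 in KO cells and 741.9 to 870.06 in WT cells at 30 h, and to 940.14 to 1070.1 in KO cells and 731.02 to 870.56 in WT cells at 18 h. Epithelial markers, 5 of 6 above it, summed to 1402.7 to 1545 in KO cells and 1323.8 to 1489.9 in WT cells at 30 h, and to 1434 to 1513 in KO cells and 1165.1 to 1395.6 in WT cells at 18 h. The part of cells with such markers in the genotype differences was not tested.

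The wider chaperone network was described through 10 lists with 95 genes, of which 93 were tested. These lists were also chosen with earlier results of these data known, so their counts too are a description. HSP90 cochaperones, which load clients onto HSP90 and pace its cycle, had the highest median with time in KO cells of the 10 lists. Of their 13 genes 9 rose with time in KO cells and none fell (median 0.45), where 20.9% of all genes rose and 18.4% fell. In WT cells 2 rose, where 2.41% of all genes did. They were Fkbp4 (0.38, adjusted p = 0.0394) and Stip1 (0.25, adjusted p = 0.0426), with calls kept in 17 and 14 of 26 alternatives. Of the differences of the time effects 4 were called, all positive, where 10.2% of all genes were. Chordc1, an HSP90-binding protein, had 2501, 2418 and 2035 in KO cells at 30 h and 1263, 1202 and 1237 in KO cells at 18 h, and 1753, 1860.1 and 1602 in WT cells at 30 h and 1576, 1739.8 and 1528 in WT cells at 18 h. It rose with time in KO cells by 0.90 (adjusted p = 1.96e-06), and its time effects differed by 0.79 (adjusted p = 0.000585). By genotype 10 of the 13 were higher in KO cells at 30 h and none lower (24.3% and 28.6% of all genes). At 18 h 6 were higher and 2 lower (26.3% and 33.8% of all genes). Fkbp5, an immunophilin of steroid receptor complexes, was higher in KO cells by 0.77 at 30 h (adjusted p = 2.5e-06) and 1.04 at 18 h (adjusted p = 5.14e-08), and Cdc37, which brings kinases to HSP90, by 0.74 (adjusted p = 5.66e-07) and 0.76 (adjusted p = 2.9e-07). Unc45a, a cochaperone for myosin, had a called difference of time effects of 0.67 (adjusted p = 0.00347).

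Among HSP70 cofactors, 4 of 8 nucleotide exchange and release genes rose with time in KO cells and none fell (20.9% and 18.4% of all genes). In WT cells none was called, where 3.96% of all genes were. None of the 8 differences of the time effects was called, where 20.3% of all genes were, so these rises were not shown to differ between the genotypes. In KO cells Hspbp1, an exchange factor, rose by 0.80 (adjusted p = 6.69e-05) and Bag2 by 0.60 (adjusted p = 0.00186). Of 12 other J-domain genes 4 rose and 2 fell in KO cells, the falls near the share over all genes. Dnajc7 rose by 0.67 in KO cells (adjusted p = 2.99e-05), with a difference of the time effects of 0.80 (adjusted p = 0.000638). Of 7 other HSP70 and HSP110 genes none rose with time in KO cells and 1 fell (20.9% and 18.4% of all genes), the fall near the share over all genes. In WT cells none of the 7 was called, a count near the share over all genes (3.96%). By genotype Hspa4l, an HSP110 gene, averaged 2087 ± 74.4 in KO cells and 563 ± 29.9 in WT cells at 30 h (SD, n = 3 each; 1.86, adjusted p = 5.72e-11), and its difference at 18 h was 2.15 (adjusted p = 7.7e-12). Hspa12a, a distant HSP70 relative, averaged 1139 ± 82.6 in KO cells and 76.7 ± 15.4 in WT cells at 30 h (SD, n = 3 each), and 1492 ± 128 in KO cells and 101 ± 20.2 in WT cells at 18 h. Every WT value of Hspa12a lay below the filter intensity of 174.8, so it passed the filter through KO cells alone and its genotype difference is given as a description.

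In mitochondria 1 of 11 chaperone and protease genes rose with time in KO cells and 5 fell (20.9% and 18.4% of all genes). In WT cells none was called, where 3.96% of all genes were. The 1 that rose was Hspe1, HSP10, the partner of HSP60, at 0.65 (adjusted p = 0.000253). Its KO arrays were at 4684, 3829 and 3609 at 30 h and at 2182, 2486 and 3066 at 18 h, and they did not overlap. The protease gene Lonp1 fell by 0.70 on the log2 scale in KO cells (adjusted p = 2.79e-05), with a difference of the time effects of -0.78 (adjusted p = 0.000963), and 4 of the 11 differences were called, all negative (10.1% of all genes). Of the 8 subunits of the cytosolic chaperonin TRiC, 3 rose with time in KO cells and 1 in WT cells (20.9% and 2.41% of all genes). Cct3 rose in both, by 0.56 in KO cells (adjusted p = 1.67e-05) and by 0.27 in WT cells (adjusted p = 0.0393). That WT call was kept in 14 of 26 alternatives. None of the 8 differences of the time effects was called (20.3% of all genes). By genotype 7 of the 8 were higher in KO cells at 30 h and none lower (24.3% and 28.6% of all genes), and at 18 h 6 were higher and 1 lower (26.3% and 33.8% of all genes). Tcp1 was higher by 0.47 at 30 h (adjusted p = 3.9e-06) and 0.67 at 18 h (adjusted p = 5e-08). Of 6 prefoldin subunits, which hand clients to TRiC, none was called with time (39.3% of all genes in KO cells, 3.96% in WT cells). By genotype 1 was higher and 1 lower at 30 h and 3 were higher at 18 h. The genotype shares of all genes are those given for TRiC.

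**Figure D4:**
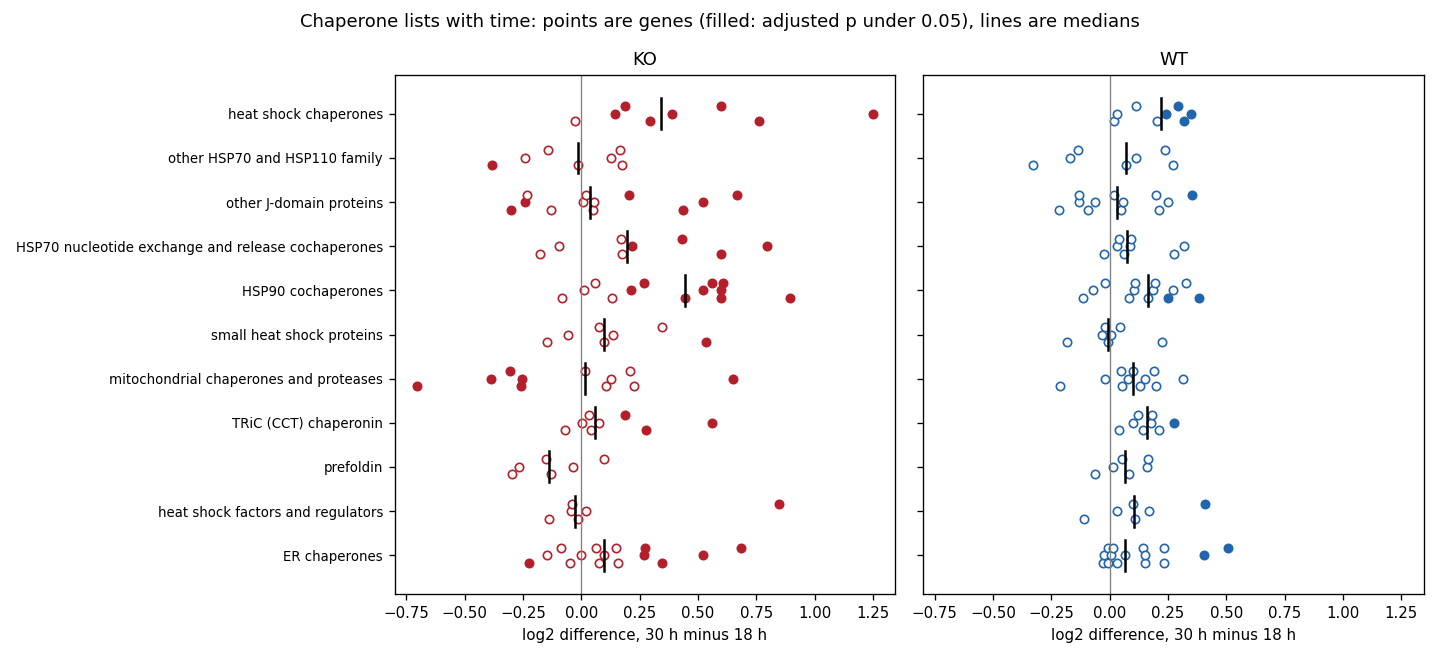
Log2 difference, 30 h minus 18 h, of the 8 heat shock chaperones and of 10 wider chaperone lists in KO and in WT cells; each point is a gene, filled where its adjusted p is under 0.05, and the vertical line is the list's median. In KO cells the median is 0.34 for the heat shock chaperones and 0.45 for HSP90 cochaperones.

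Among 7 tested small heat shock proteins other than Hspb1, 2 were higher and 1 lower in KO cells at 30 h (24.3% and 28.6% of all genes). At 18 h 1 was higher and 1 lower (26.3% and 33.8% of all genes). These counts were near or below the shares over all genes, and the lower gene was Hspb8 at each time. Hspb8, which works with Bag3 in clearing misfolded proteins, had 88.3, 52.3 and 68.9 in KO cells at 30 h and 35.8, 58.1 and 60.9 in KO cells at 18 h, and 2247, 2325 and 2281 in WT cells at 30 h and 2121, 2045 and 2507 in WT cells at 18 h. Every KO value lay below the filter intensity, so Hspb8 passed the filter through WT cells alone and its genotype difference is likewise a description. Hspb6, a small heat shock protein known from muscle, averaged 4294 ± 341 in KO cells and 1169 ± 124 in WT cells at 30 h (SD, n = 3 each; 1.87, adjusted p = 2.76e-11), was higher in KO cells by 1.31 at 18 h (adjusted p = 2.64e-09), and rose with time in KO cells by 0.54 (adjusted p = 0.000277).

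**Figure D5:**
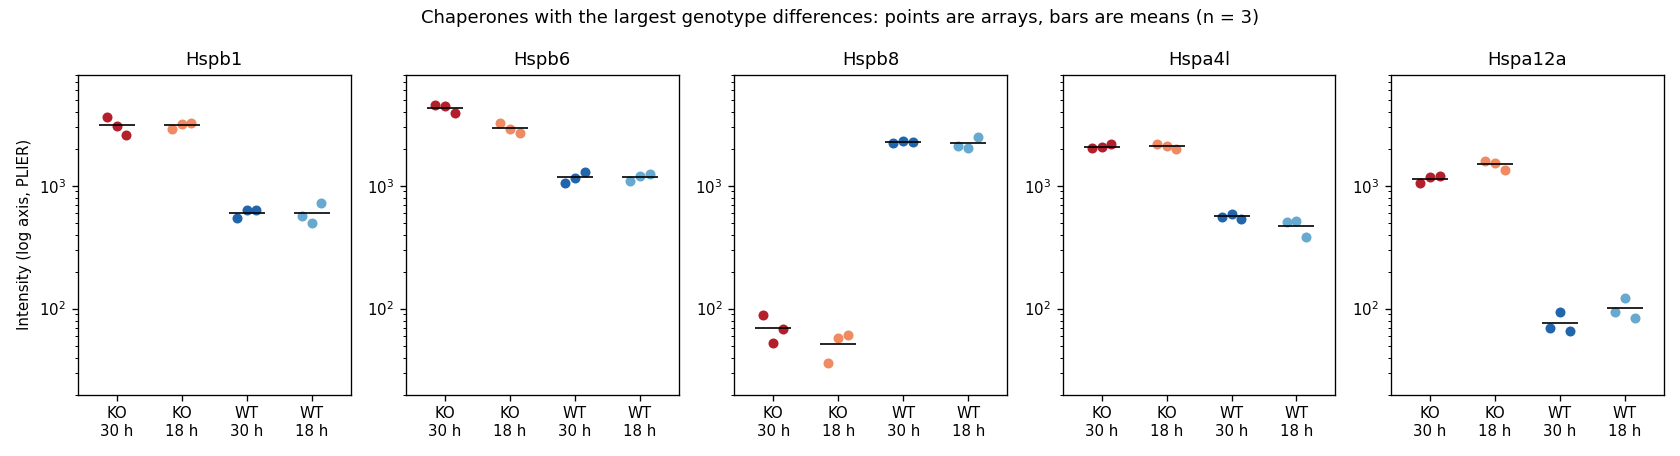
Intensity (PLIER, log axis) of Hspb1 and of the wider chaperone genes Hspb6, Hspb8, Hspa4l and Hspa12a on the 12 arrays, with points for arrays and bars for means of 3 arrays. KO arrays lie above WT arrays for Hspb1, Hspb6, Hspa4l and Hspa12a and below them for Hspb8, with no overlap at either time.

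Of 6 heat shock factors and regulators tested, 1 rose with time in each genotype (20.9% of all genes in KO cells, 2.41% in WT cells). This was Sirt1, a deacetylase that acts on heat shock factor 1. It rose by 0.85 in KO cells (adjusted p = 1.56e-06) and by 0.41 in WT cells (adjusted p = 0.0102), a WT call that ended without WT 30 h replicate 3 (adjusted p = 0.0683), and the time effects differed by 0.44 (adjusted p = 0.0123), a call that ended with array medians set equal (adjusted p = 0.0829). By genotype 1 of the 6 was higher and 3 were lower at each time (24.3% and 28.6% of all genes at 30 h, 26.3% and 33.8% at 18 h). Hikeshi, which carries HSP70 into the nucleus, was higher in KO cells by 0.69 at 30 h (adjusted p = 1.79e-07) and 0.73 at 18 h (adjusted p = 6.2e-08). Hsf4, a heat shock factor known from the lens, was lower in KO cells at 30 h (-1.22, adjusted p = 5.84e-07) and at 18 h (adjusted p = 4.14e-06). Hsf1 itself had no probe set listed for it alone and was not analysed here. Of 15 chaperones of the endoplasmic reticulum, which folds secreted proteins, 5 rose and 1 fell with time in KO cells (20.9% and 18.4% of all genes) and 2 rose in WT cells (2.41%). Dnajb11, a cofactor of the reticulum's HSP70, rose by 0.68 in KO cells (adjusted p = 5.94e-05). By genotype 2 were higher and 5 lower in KO cells at 30 h, and 3 higher and 4 lower at 18 h, counts near or below the shares over all genes (24.3% and 28.6% at 30 h, 26.3% and 33.8% at 18 h).

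Over the 10 lists, 28 of 93 genes rose with time in KO cells and 9 fell (median 0.08), where 20.9% of all genes rose and 18.4% fell. In WT cells 7 rose and none fell (median 0.09), where 2.41% rose and 1.55% fell. Of the differences of the time effects 10 were positive and 6 negative, where 10.2% and 10.1% of all genes were. The positive ones were thus near the share over all genes. By genotype 35 were higher and 20 lower in KO cells at 30 h (24.3% and 28.6% of all genes), and 34 were higher and 24 lower at 18 h (26.3% and 33.8% of all genes). Several of these counts turned on 1 array. The 9 falls in KO cells became 17 without KO 18 h replicate 1, 4 without KO 18 h replicate 2 and 5 without KO 18 h replicate 3, and the 6 negative differences became 17 without KO 18 h replicate 1. The 20 lower genes at 30 h became 13 without WT 30 h replicate 3 or KO 30 h replicate 3. The 7 rises in WT cells became 1 to 4 without any 1 of WT 18 h replicates 1 and 2, the WT 30 h arrays, KO 18 h replicate 2 and KO 30 h replicate 2, and 12 or 13 without KO 18 h replicate 1 or WT 18 h replicate 3.

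Outside these lists, the genes whose pattern over the 12 arrays was most like the mean standardised profile of the 8 genes were Ebna1bp2 (Pearson r = 0.98), Mrps15 (0.98), Slc25a5 (0.97), Snx9 (0.97) and Hoxb2 (0.97). These values describe likeness across arrays that fall into 4 groups and share their normalization, and they carry no test.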

How the data were processed

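Total RNA of 12 samples was measured on Affymetrix whole-transcript arrays. The authors deposited a linear intensity for each probe set. The submitters' processing notes name PLIER 2.0 and Affymetrix Expression Console 1.1, and the sources used here do not state how PLIER normalized between arrays. Of 35557 probe sets, 21789 had 1 gene symbol in the platform annotation, 1621 had several and 12147 had none listed; 21698 were matched by Entrez number to RefSeq names (GRCm38.p6). Groups came from the sample titles.

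Values were taken as log2(intensity + 16), which understates changes of dim genes. For each of 19938 genes the probe set of highest mean was kept, and the 13956 genes at or above the 30th percentile of the mean (log2 7.58) were tested with limma 3.58.1 in R 4.3.3, in 1 fit of 4 group means with an intensity trend. Tests were two-sided and p-values were adjusted by Benjamini-Hochberg over all genes tested; "called", "rose", "fell", "higher" and "lower" mean an adjusted p under 0.05. The time effects were compared by the interaction contrast. The procedure was tested on simulated data.

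The 10 genes and all lists were chosen with earlier results of these data known. Besides the 10 genes, each wider list contributed at most its 2 largest called rises and falls per comparison to the names, Kmt2a was named as the targeted gene, and the 5 genes most like the profile were named. Marker genes were named to describe the cells.

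A probe set was taken as lying at the gene's own locus where at least 3 of its 6 nearest neighbouring IDs are listed for genes within 2 Mb of that locus in RefSeq. All 5 genes with several probe sets (Hspa8, Hsp90aa1, Dnaja1, Hspb1 and Hspd1) had 1 such probe set, and in none was it the one of highest mean. This alternative, and the test of all 23141 probe sets above the filter singly, were chosen after seeing the data. In that test p-values were adjusted over the 23141 probe sets. Other alternatives were the offset, the filter, the scaling between arrays, the trend, robust estimation, array weights (gene by gene), only the groups compared, the mean of probe sets, the replicate block and each array left out.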

Additional observations from a re-analysis of the deposited data

Results flagged for a closer look

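In 4 of the 8 genes the change with time differed between KO and WT cells by limma's interaction contrast, adjusted over all 13956 genes. For Hsph1 the difference of the time effects was 0.90 on the log2 scale (adjusted p = 7.7e-05), with a time effect of 1.25 in KO cells and 0.35 in WT cells. For Dnaja1 it was 0.47 (adjusted p = 0.00468), with 0.76 in KO cells and 0.29 in WT cells. For Hspd1 it was 0.28 (adjusted p = 0.024), with 0.60 in KO cells and 0.32 in WT cells. For Hspa4 it was 0.27 (adjusted p = 0.0391), with 0.29 in KO cells and 0.02 in WT cells. Of all genes tested 20.3% had such a called difference. Between 2 and 4 of these 4 calls remained when each array was left out in turn; those of Hsph1 and Dnaja1 remained in all 12 such fits.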

How the results depend on the processing

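The 8 genes in 5 comparisons gave 40 results, and 1032 alternative values of these kept their direction and side of the threshold in 936 cases, lost the call in 77, gained one in 1 and turned direction in 18. A turn was counted as a turn whether or not the new value was called. The offsets, the filter at the 50th percentile, robust estimation and fitting only the groups compared changed none of them. The cause of the changes below was not tested. For Hspa8 KO minus WT turned at 18 h with cyclic loess (-0.0345, adjusted p = 0.441). It was called lower there with the mean of probe sets (-0.31, adjusted p = 0.0018) and the own-locus probe set (-1.02, adjusted p = 1.35e-05 among genes). At 30 h it turned with the mean (-0.17, adjusted p = 0.0655) and was called lower with the own-locus probe set (-0.77, adjusted p = 0.000289 among genes). The difference of time effects of Hspa8 turned with equal medians (-0.0161, adjusted p = 0.938). Dnaja1 turned at 30 h with its own-locus probe set (-0.0225). The other turns were of values that were not called: Dnajb1 at 30 h without KO 30 h replicate 1 (range -0.0508 to 0.15); Hspb1 with time in KO cells without KO 18 h replicate 3 (0.0023) or without KO 30 h replicate 3 (range -0.15 to 0.094), with time in WT cells without WT 18 h replicate 2 (range -0.0903 to 0.18), and its difference without WT 18 h replicate 2 or KO 30 h replicate 3 (0.0615; range -0.21 to 0.0655); and Hspa4 with time in WT cells with quantile scaling (-0.0022), cyclic loess (-0.0219), array weights (-0.0326), or without WT 18 h replicate 3 or WT 30 h replicate 3 (-0.0015; range -0.0262 to 0.0796).

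Of the counts among the 8 genes, those lower in KO cells became 1 at 18 h with equal medians and 1 at 30 h with own-locus probe sets. Rises with time in WT cells became 2 with no intensity trend. Called differences of time effects became 2 with quantile scaling, 2 with equal medians and 2 with no trend. Among the wider genes, falls with time in KO cells became 15 with cyclic loess and 18 with array weights; rises in WT cells became 4 with no filter, 3 with no trend and 19 with array weights, and falls there 1 with array weights; and differences became 6 positive with equal medians, and 18 positive and 18 negative with array weights. Over all genes, 337 rises and 216 falls in WT cells became 976 and 666 with array weights and 588 and 409 with only the groups compared, and the falls 99 with equal medians. The 1427 positive differences became 765 with equal medians, and with array weights there were 2913 positive and 2336 negative ones (1411 otherwise). With 1 array left out, the ranges over the 8 genes were 2 to 3 lower at 18 h, 4 to 6 higher at 30 h, 0 to 4 rises in WT cells and 2 to 4 differences, and over the wider genes 13 to 23 lower at 30 h, 4 to 17 falls in KO cells, 1 to 13 rises in WT cells, and 8 to 14 positive and 5 to 17 negative differences.

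Same-numbered arrays did not consistently deviate together (correlations -0.456 to 0.454), so the numbers were not taken as pairs. With the replicate number as a block, 5 of the 8 genes were higher at 30 h, 6 rose in KO cells, 3 rose in WT cells and 3 differences were called. It ended 4 calls, those of Hspa8 at 30 h (adjusted p = 0.0606), Hsp90aa1 with time in KO cells (0.0615), Dnaja1 with time in WT cells (0.0509) and the difference of Hspa4 (0.0514), and changed no other call of the 8 genes. The named wider genes and Kmt2a gave 106 results, and of 2740 alternatives 93 lost a call, 5 gained one and none turned direction. Arrays of 3 a group limit small differences, and the normalization within PLIER is unknown.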
